A study of Mus musculus with 28 samples.

Results

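The genes described are those that encode the Wnt, Fgf, Bmp and hedgehog proteins, read for 2 histone marks in the 2 projection neuron types of the mouse striatum. They were taken by symbol from the GENCODE vM21 annotation of mm10 as every protein-coding autosomal gene named *Wnt*, *Fgf* or *Bmp* with a number, plus *Shh*, *Ihh* and *Dhh*. The rule found 52 of the 20807 autosomal protein-coding genes, and *Bmp15*, *Fgf13* and *Fgf16* were left out because they lie on the X chromosome. The rule itself uses no value of the lists, but the group was chosen with earlier results of these data known.

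A2a nuclei came from Sun1-sfGFP;A2a-cre mice and D1 nuclei from Sun1-sfGFP;Drd1-cre mice, of both sexes, about 8 weeks old and on a C57BL/6J background. All carry the R26-CAG-LSL-Sun1-sfGFP allele, in which Cre switches on a GFP-tagged nuclear envelope protein, so a nucleus was captured wherever the A2a or *Drd1* driver had been active. Nuclei of a single striatum were purified by INTACT (affinity isolation of tagged nuclei) and profiled by CUT&RUN (CnR), in which an antibody directs a nuclease to the chromatin that carries a mark. The deposited lists pool 2 replicates each and hold H3K4me3 peaks and H3K27me3 islands of A2a and D1 nuclei, 4 lists in all, so values carry no error between mice and differences between A2a and D1 could not be tested. The labels of the H3K27me3 samples titled D1 disagree, in that their source name gives A2a while title and cell type give D1. They were read as D1, and each H3K27me3 comparison between A2a and D1 rests on that reading.

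Wnt, Fgf, Bmp and hedgehog proteins are secreted signals that pattern the embryo and the developing brain by binding receptors on nearby cells. Their genes are textbook targets of Polycomb group proteins, whose complexes place H3K27me3 over genes kept silent, while H3K4me3 marks the start sites of genes that are active or can become so. Promoters rich in CG dinucleotides are known as sites where both systems act.

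The upstream sequences below show how far these promoters differ in CG content, and all 4 combinations of the marks are found among them. RefSeq's promoter table (GRCm38.p6) held an entry for 38 of the 52 genes, and for 26 of these its start site lay within 100 bp of the GENCODE one. The marks named here are those at that GENCODE start, and other annotated starts of a gene can differ. Each line gives the 150 bases before the start site, 5′ to 3′ on the strand of the gene, with CG dinucleotides in capitals. *Wnt9a* (chr11:59306780-59306929 (plus strand)) and *Wnt16* (chr6:22288077-22288226 (plus strand)) carried both marks in both cell types and have the most and the fewest CG dinucleotides of the 5 genes of that class whose entry matched. *Wnt3a* (chr11:59290752-59290901 (minus strand)), *Bmp4* (chr14:46390670-46390819 (minus strand)) and *Wnt8b* (chr19:44493322-44493471 (plus strand)) carried H3K27me3 alone, *Wnt7a* (chr6:91411354-91411503 (minus strand)) carried H3K4me3 alone, *Fgf18* (chr11:33147401-33147550 (minus strand)) had both marks in A2a and no H3K27me3 in D1, and *Bmp10* (chr6:87428844-87428993 (plus strand)) had neither mark.
Wnt9a: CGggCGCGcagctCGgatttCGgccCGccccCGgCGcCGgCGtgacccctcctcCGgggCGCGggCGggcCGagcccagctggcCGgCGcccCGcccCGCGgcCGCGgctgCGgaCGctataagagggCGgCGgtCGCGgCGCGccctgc
Wnt16: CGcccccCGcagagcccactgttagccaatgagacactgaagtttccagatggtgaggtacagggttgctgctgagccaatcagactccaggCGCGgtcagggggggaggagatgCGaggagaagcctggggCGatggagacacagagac
Wnt3a: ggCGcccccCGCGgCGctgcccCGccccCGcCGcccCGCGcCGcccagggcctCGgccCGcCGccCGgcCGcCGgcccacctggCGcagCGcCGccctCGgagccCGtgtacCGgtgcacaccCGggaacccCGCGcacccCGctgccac
Bmp4: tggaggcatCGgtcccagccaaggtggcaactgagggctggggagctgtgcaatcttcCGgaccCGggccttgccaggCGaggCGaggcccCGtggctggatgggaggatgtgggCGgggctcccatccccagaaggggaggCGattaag
Wnt8b: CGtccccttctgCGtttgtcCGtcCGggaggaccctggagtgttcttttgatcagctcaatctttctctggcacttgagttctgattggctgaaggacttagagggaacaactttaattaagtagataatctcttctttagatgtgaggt
Wnt7a: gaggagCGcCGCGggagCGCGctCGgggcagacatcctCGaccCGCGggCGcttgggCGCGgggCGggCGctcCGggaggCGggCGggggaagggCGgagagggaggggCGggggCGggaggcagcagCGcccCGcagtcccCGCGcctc
Fgf18: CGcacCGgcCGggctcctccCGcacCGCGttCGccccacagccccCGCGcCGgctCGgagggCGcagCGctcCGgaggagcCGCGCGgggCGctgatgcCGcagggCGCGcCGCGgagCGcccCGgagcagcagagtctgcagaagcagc
Bmp10: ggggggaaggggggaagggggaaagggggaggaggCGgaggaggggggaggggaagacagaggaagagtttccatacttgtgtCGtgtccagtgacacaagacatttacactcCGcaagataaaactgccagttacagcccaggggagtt

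In the full 300-base entry, *Wnt9a* has 58 CG dinucleotides, and 0.11% of all 32851 promoters of the table have as many. *Wnt3a* has 45 (1.93% of promoters), *Fgf18* 47 (1.44%) and *Wnt7a* 42 (3.03%), so promoters with either mark alone can be equally rich. *Bmp4*, with the most H3K27me3 reads of all members, has 12 (39.6% of promoters), *Wnt16* 10 (43.5%), *Wnt8b* 6 (56.4%) and *Bmp10* 3 (76.7%). The median over the table was 7.

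H3K27me3 was the prevailing mark of these genes in both cell types. A promoter was read from 2 kb upstream to 1 kb downstream of the transcription start site (TSS), and it counted as marked where a peak or island overlapped it by at least 1 bp. An H3K27me3 island lay at 39 of the 52 promoters in A2a nuclei, against 22.4% of all autosomal protein-coding genes, and at 32 in D1 nuclei, against 15.8%. The reverse held for H3K4me3, which lay at 24 promoters in A2a (59.3% of all genes) and at 21 in D1 (56.8%). Both marks were found at 17 promoters in A2a (9.84% of all genes) and at 9 in D1 (5.79%). Islands reached the gene body of 43 members in A2a (28.7% of all genes) and of 38 in D1 (21.7%), and covered at least 50% of the body of 24 and 13 members, where 9.31% and 4.95% of all genes were covered to that extent. The A2a list is the longer of the pair, with 60191 islands over 301.0 Mb and 22091634 reads, against 45760 islands over 184.1 Mb and 7878685 reads in D1. Counts in A2a and D1 are therefore best read each against its own background.

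**Figure D1:**
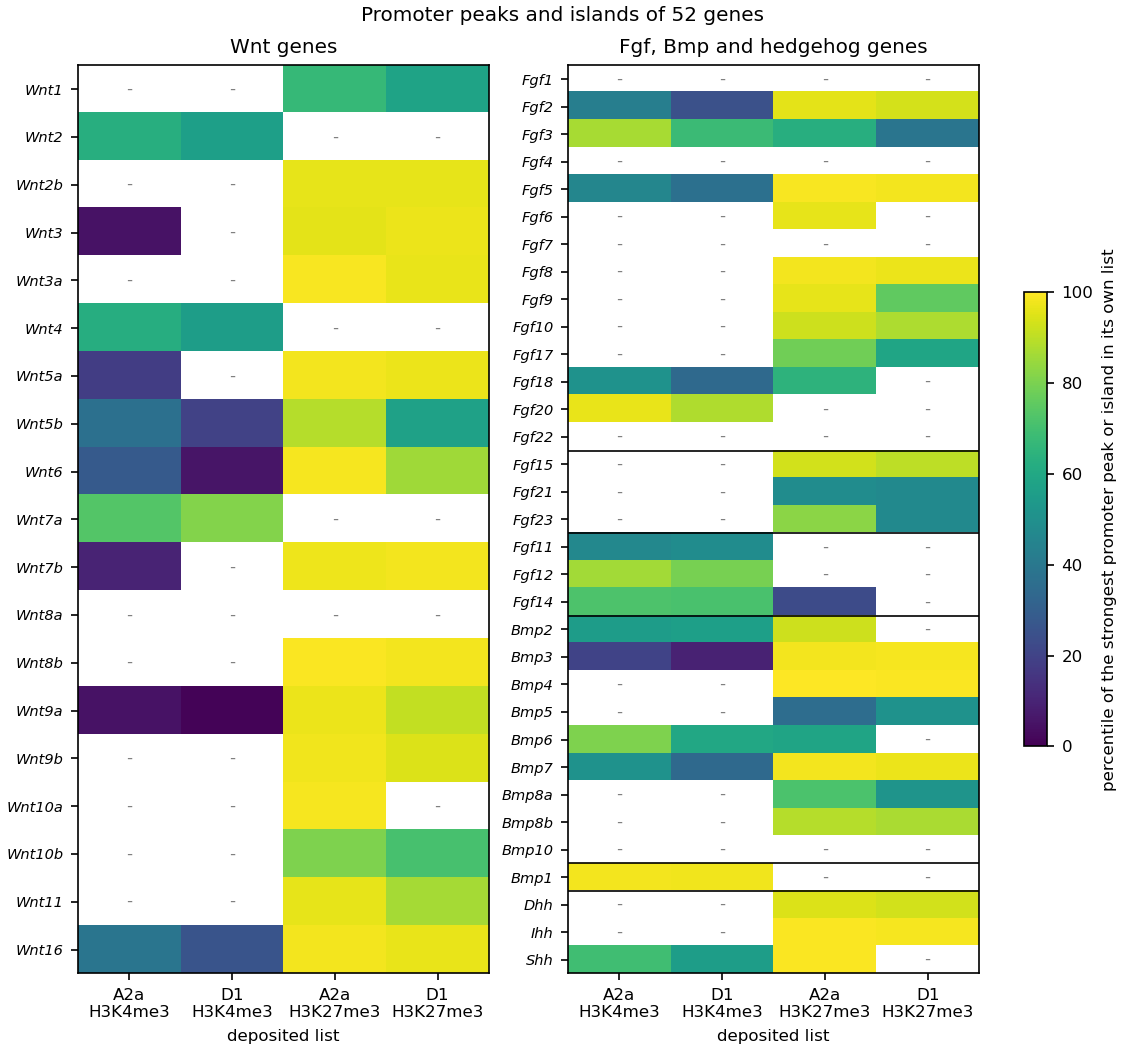
Percentile of the strongest promoter peak or island of each of the 52 genes within its own list (color, 0 to 100), where H3K4me3 is ranked by −log10 q and H3K27me3 by reads, with a dash where a list has none. Black lines separate paracrine Fgf, endocrine Fgf, intracellular Fgf, Bmp, Bmp1 and hedgehog genes, and the H3K27me3 columns are filled at 39 (A2a) and 32 (D1) genes, most near the top of the scale.

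The labels of the nuclei were checked against marker genes of each cell type. At the A2a genes *Adora2a*, *Drd2*, *Penk* and *Gpr6* the D1 list held islands of 7.8 to 45.0 kb, while the A2a list had none at *Adora2a* and *Gpr6* and islands of 2.6 and 3.4 kb at *Drd2* and *Penk*. At the D1 genes *Drd1*, *Pdyn*, *Tac1* and *Isl1* the A2a list held islands of 16.8 to 61.0 kb and the D1 list islands of 1.0 to 5.8 kb. The H3K27me3 lists thus differ at these genes in the direction of their titles. H3K4me3 lay at 3 of 4 oligodendrocyte, 1 of 4 astrocyte, 1 of 4 microglial and 0 of 3 endothelial marker promoters in A2a, and at 3, 1, 0 and 0 in D1. What other cells contribute to the peaks at the members was not tested.

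Among the 19 Wnt genes, which encode lipid-modified signals for Frizzled receptors, 15 had an H3K27me3 island at the promoter in A2a and 14 in D1. *Wnt8b*, expressed in the embryonic forebrain, lay under an island of 29.6 kb with 3446 reads in A2a and one of 18.0 kb with 842 reads in D1, and its gene body was covered to 100% and 96.2%. *Wnt3a*, a classical activator of β-catenin signalling, had an island of 31.2 kb with 3122 reads in A2a and of 7.8 kb with 567 reads in D1. Both genes had no H3K4me3 peak at the promoter in either list. The same held for *Wnt1*, *Wnt2b*, *Wnt9b*, *Wnt10b* and *Wnt11*, whose A2a islands ran from 2.4 kb (*Wnt1*) to 18.4 kb (*Wnt9b*). With the start site of any annotated transcript, however, *Wnt8b* and *Wnt11* had H3K4me3 in both lists. Within *Wnt1* an H3K4me3 peak began 2707 bp (A2a) and 2806 bp (D1) downstream of the TSS. *Wnt5b*, *Wnt6*, *Wnt9a* and *Wnt16* carried both marks in both cell types. Their H3K4me3 peaks ranked between percentile 4.81 (*Wnt9a*) and 38.8 (*Wnt16*) of the A2a list and between 1.11 (*Wnt9a*) and 26.0 (*Wnt16*) of the D1 list, so all 4 were in the lower part of each list.

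H3K4me3 without H3K27me3 was found in both cell types at 3 Wnt genes, *Wnt2*, *Wnt4* and *Wnt7a*. The *Wnt7a* peak (chr6:91409894-91411900 in A2a) spanned the TSS, from 537 bp upstream to 1469 bp downstream, and its fold enrichment was 6.12 (percentile 73.4) in A2a and 7.41 (percentile 81.6) in D1. It was the highest ranked promoter peak of a Wnt gene in both lists. No island overlapped the *Wnt7a* promoter or gene body in either list. The peaks of *Wnt2* stood at percentiles 62.8 and 56.5 and those of *Wnt4* at 62.2 and 55.8, in A2a and D1 respectively. These 3 genes were the only Wnt genes whose promoter peak ranked above percentile 50 in either list.

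In 3 Wnt genes the H3K4me3 peak at the promoter was in the A2a list alone, against 2.61% of all genes, and they made up all such members. They were *Wnt3*, *Wnt5a* and *Wnt7b*, each under an H3K27me3 island in both lists. The A2a peaks were weak, at percentiles 4.81, 18.2 and 9.80. The A2a H3K4me3 list is also the longer, with 22551 peaks against 20080 in D1. With equal numbers of the strongest peaks, A2a lost those of *Wnt3*, *Wnt7b* and *Wnt9a*. Where 500 bp of the window had to be covered, A2a lost all 3 of these peaks, and D1 lost those of *Wnt6*, *Wnt16* and *Bmp3*. In D1, *Wnt5a*, a ligand of β-catenin-independent signalling, had a peak of 757 bp that began 1315 bp downstream of the TSS and so missed the window by 315 bp. No member had an H3K4me3 promoter peak in D1 alone, where 0.154% of all genes did.

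Of the 14 autosomal Fgf genes whose products act on nearby cells, 9 had a promoter island in A2a and 7 in D1. *Fgf8*, a signal of the midbrain-hindbrain organizer, was covered by H3K27me3 over its whole gene body in both lists, with islands of 19.2 kb and 1979 reads in A2a and 12.2 kb and 648 reads in D1. *Fgf5*, a regulator of the hair cycle, had the longest island of the Fgf genes in A2a, 25.8 kb with 2805 reads, and 10.4 kb with 836 reads in D1. It also carried H3K4me3 in both, at percentiles 45.7 and 36.9. *Fgf2* and *Fgf3* were the other Fgf genes with both marks in both cell types. At *Fgf3* H3K4me3 stood at percentile 87.0 and H3K27me3 at 62.6 in A2a, and at 68.1 and 38.9 in D1. Each mark is ranked by its own measure in its own list, so these percentiles set no order between the marks.

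The endocrine genes *Fgf15*, *Fgf21* and *Fgf23*, whose products act as hormones of the gut, liver and bone, all carried H3K27me3 alone in both cell types. *Fgf15* lay under 10.0 kb with 860 reads in A2a and 5.6 kb with 296 reads in D1. The island at *Fgf21* (2.6 kb in A2a, 3.4 kb in D1) did not reach its gene body, and its window also holds the TSS of *Fut1*, so the 2 promoters cannot be told apart. *Fgf11*, *Fgf12* and *Fgf14*, whose products are not secreted and bind neuronal sodium channels, all had H3K4me3 in both lists, with the peak of *Fgf12* at percentiles 86.1 and 79.4. None of them had an island in D1, and the single A2a island, at *Fgf14*, was 2.2 kb long with 143 reads.

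*Fgf20* was the remaining Fgf gene with H3K4me3 alone at the promoter. Its peak stood at percentile 96.5 (A2a) and 88.3 (D1). The window also holds the TSS of *Micu3*, a mitochondrial calcium uptake gene, and the peak cannot be assigned to either gene. Farther into *Fgf20*, an island of 7.6 kb with 767 reads in A2a and one of 11.6 kb with 442 reads in D1 covered 26.1% and 39.8% of the gene body. With the start site of any annotated transcript, *Fgf20* had an island in both lists.

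Among the 9 Bmp ligand genes, 8 had a promoter island in A2a and 6 in D1. *Bmp4*, a dorsalizing signal of the neural tube, had the most reads of all members in both lists, 5548 in an island of 38.0 kb in A2a and 1677 in an island of 15.4 kb in D1. These islands stood at percentile 99.7 of the A2a list and 99.4 of the D1 list. No H3K4me3 peak met its promoter window, and the nearest lay 1893 bp (A2a) and 2028 bp (D1) beyond it. These peaks lay within the gene, 2893 to 3646 bp (A2a) and 3028 to 3347 bp (D1) downstream of the TSS. With the start site of any annotated transcript, *Bmp4* had H3K4me3 in both lists. *Bmp3*, an atypical member that opposes other Bmp signals, had both marks in both cell types, with islands of 21.8 and 15.8 kb (1838 and 970 reads) and weak H3K4me3 peaks at percentiles 20.1 and 9.45. *Bmp7* also had both marks in each, and *Bmp5*, *Bmp8a* and *Bmp8b* had H3K27me3 alone. *Bmp1*, which is named with the family but encodes a procollagen protease, had H3K4me3 alone, at percentiles 98.2 and 97.7, the highest H3K4me3 rank of the 52 genes in each list.

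All 3 hedgehog genes had a promoter island in A2a, and their gene bodies were covered by 72.3% (*Dhh*) to 100%. *Ihh*, a cartilage growth signal, had the longest promoter island of the members in each list, 40.0 kb with 3903 reads in A2a and 19.6 kb with 1130 reads in D1. *Dhh*, a Schwann cell and testis signal, had islands of 8.2 and 5.6 kb with 1009 and 368 reads. Neither gene had H3K4me3 at the promoter.

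*Shh* (chr5:28456815-28467256, minus strand), the ventral organizer signal of the neural tube, differed between the lists. In A2a an island of 28.8 kb with 3302 reads (chr5:28454601-28483400) ran from 16144 bp upstream to 12655 bp downstream of the TSS and covered the whole gene. In D1 the island in the gene (chr5:28458801-28465800) was 7.0 kb long with 324 reads and began 1456 bp downstream of the TSS. It missed the promoter window by 456 bp, and still covered 67.0% of the gene body. H3K4me3 stood at nearly the same place in both, as a peak of 2604 bp from 181 bp downstream in A2a (percentile 69.5) and of 2667 bp from 153 bp downstream in D1 (percentile 55.5).

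**Figure D2:**
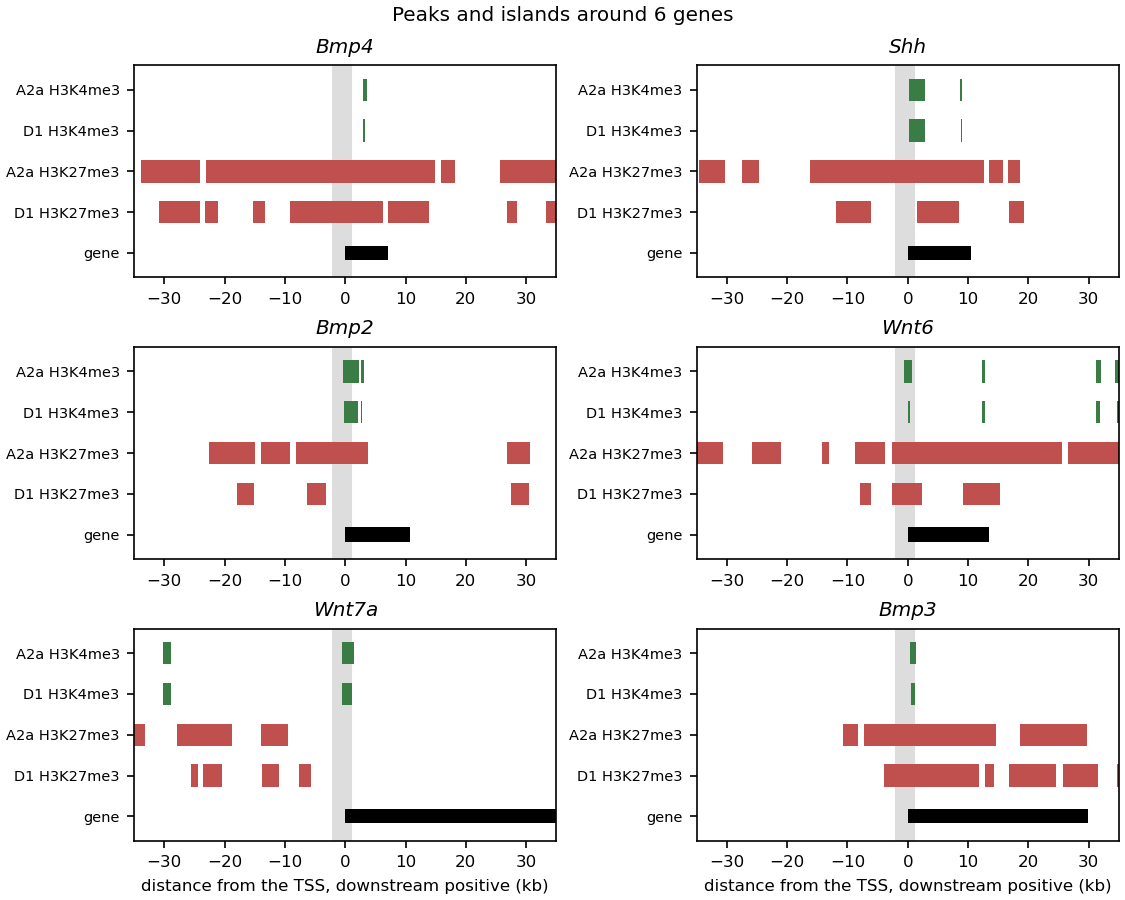
H3K4me3 peaks (green) and H3K27me3 islands (red) of the 4 lists around 6 genes, by distance from the TSS in kb, with the gene in black and the promoter window in grey. The A2a island at *Shh* runs across the promoter and the D1 island starts 1456 bp downstream of the TSS, while *Wnt7a* has H3K4me3 and no island at its promoter.

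In all, 7 members had a promoter island in A2a and none in D1, against 7.65% of all genes, and 0 had one in D1 alone, against 1.05%. The share of 13.5% of members sits above the former, but members have an A2a island more often. Among genes with an A2a island, 7 of 39 members had none in D1, a smaller share than the 1592 of 4661 among all genes. Several of the 7 genes also lay close to a D1 island. *Shh*, *Fgf6* and *Bmp2* missed it by 456, 1015 and 1159 bp. *Wnt10a* missed it by 2316 bp and *Fgf18* by 7400 bp, and in *Fgf18*, a skeletal growth signal, D1 islands still covered 49.4% of the gene body. *Fgf6*, a muscle factor, kept 82.5% of its gene body under H3K27me3 in D1. *Bmp6* and *Fgf14* had no D1 island within 50 kb of the window, and their A2a islands were short, with 244 and 143 reads at percentiles 58.3 and 22.8. At *Wnt10a* and *Bmp2*, D1 islands covered 0% of the gene body, against 92.1% and 35.8% in A2a. Just inside the window, the D1 island of *Wnt5b* covered 8.46% of it.

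Over all marks, 42 of the 52 genes had the same class (both marks, either alone or neither) in A2a and D1, against 88.9% of all genes. The latter share is made up mostly of 10043 genes with H3K4me3 alone and 5699 with neither in both lists. Of genes with H3K27me3 alone in A2a, 20 of 22 members kept that class in D1, against 1632 of all 2614. Of those with both marks in A2a, 9 of 17 members did, against 1127 of all 2047. Read at the 5′ end of each gene, the 20 genes with H3K27me3 alone in both lists formed the largest class. They were followed by 9 with both marks, 7 with H3K4me3 alone and 6 with neither. The remaining 10 were the 7 genes without a D1 promoter island and the 3 Wnt genes without a D1 peak. The order of the classes depends on the start site. With that of any annotated transcript, 24 of the 42 members with an A2a island had both marks. At the 5′ end of the gene, neither mark was found in either list at *Bmp10*, a heart ligand, and at *Fgf1*, *Fgf4*, *Fgf7*, *Fgf22* and *Wnt8a*. At *Fgf4*, the GENCODE start lies upstream of other annotated starts, and islands covered 50.6% (A2a) and 40.5% (D1) of the gene body. At *Wnt8a* the nearest A2a island lay 1488 bp from the window, and A2a islands covered 58.3% of the gene body, where D1 islands covered 0%.

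Over the 39 genes with a promoter island in A2a, the median island was 12 kb long (range 2.2 to 40.0 kb) and held 1228 reads, against 6.2 kb and 466 reads over all 4661 genes with one. In D1 the median was 5.9 kb (1.8 to 19.6 kb) and 341 reads, against 4.8 kb and 218 reads over 3287 genes. Of the member islands, 22 in A2a and 13 in D1 reached percentile 95 of their own list, which is 56.4% and 40.6%, where 25.3% and 27.1% of the islands of all genes did. Islands of at least 20 kb lay at 9 member promoters in A2a (23.1%, against 11.6% of all genes with an island) and at 0 of 32 in D1, against 8.91%. Percentile 99 was reached by 6 in A2a (15.4%, against 8.56%) and by 1 in D1, against 9.67%. The most extended islands of the lists were not at these genes, since the longest promoter islands ran to 194.2 kb in A2a and 169.4 kb in D1.

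At the 32 genes with an island in both lists, the A2a island was longer at 28, the D1 island at 3 (*Wnt7b*, *Fgf21* and *Bmp5*), and both were equal at *Wnt1*. The median ratio of lengths, A2a over D1, was 1.66, against 1.41 over all 3069 genes with both islands. Reads differed by a median ratio of 3.09, against 2.61, and reads per kb by 1.84, against 1.88. Neither reads nor lengths were normalized between the lists. The order of the genes was much alike, with a Spearman's rho of 0.862 for reads over the 32 genes and of 0.825 over all 3069, as a description over genes of the same pooled libraries.

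**Figure D3:**
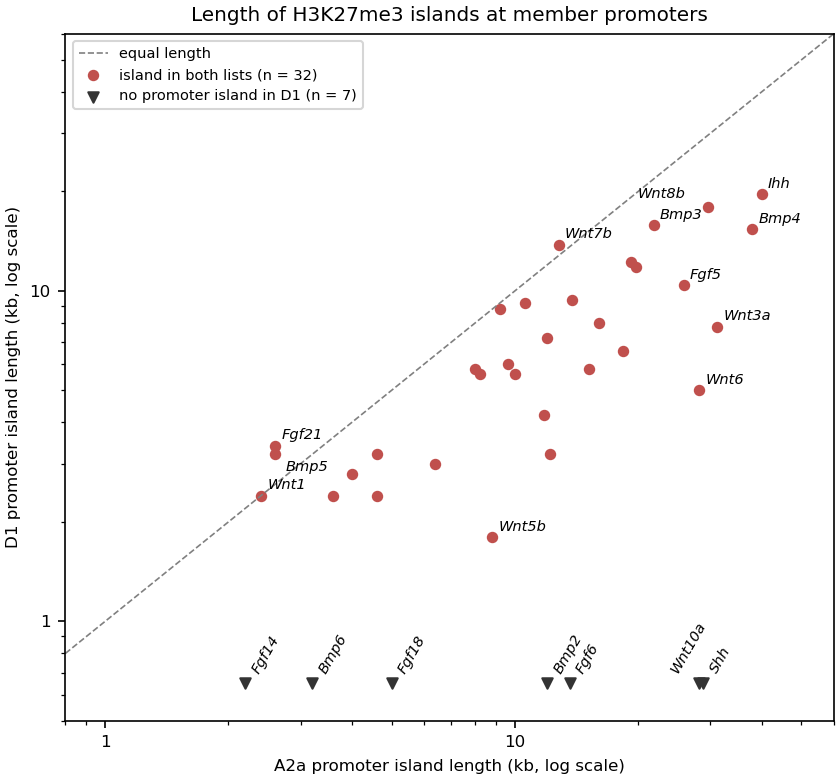
Length of the H3K27me3 island at each promoter in A2a (x axis) and D1 (y axis), in kb on log scales, with the dashed line at equal length. Points for the 32 genes with an island in both lists lie below the line at 28 genes, and triangles along the bottom mark the 7 genes with no D1 promoter island.

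There were 8 pairs of members with start sites within 100 kb, and both genes had a promoter island in 6 pairs in A2a and in 4 in D1. The share among pairs of all genes was not computed, so these counts have no background. The pairs are not separate, as they hold 13 genes, with *Fgf3*, *Fgf4* and *Fgf15* each paired with both others. *Wnt6* and *Wnt10a*, 19.6 kb apart on chromosome 1, lay under a single A2a island of 28.2 kb with 2428 reads (chr1:74769201-74797400). In D1 this stretch was broken into a 5.0-kb island (235 reads) at the *Wnt6* promoter and a 6.2-kb island (226 reads) past it, and *Wnt10a* had none. *Wnt3a* and *Wnt9a*, 16.2 kb apart, had separate islands in both lists, and H3K4me3 at *Wnt9a* alone.

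At promoters with both marks, peaks and islands mostly overlapped, at shares near those of all genes. Islands covered the whole window at 27 of 39 member promoters in A2a and at 17 of 32 in D1, which leaves a peak little room to miss them. The paper states that the method cannot tell whether the marks share a histone or a nucleosome. In A2a all 17 promoters with both had a peak that shared bases with an island, against 90.1% of all genes with both, and in D1 8 of 9 did, against 88.1%. The exception was *Wnt5b*, whose D1 peak lay 32 bp from the nearest island. H3K4me3 peaks at promoters with both marks had a median percentile of 42.8 in A2a and 24.7 in D1, while those at members with H3K4me3 alone stood at 73.4 and 58.3. The same order was seen over all genes (43.5 against 76.5 in A2a and 35.3 against 74.2 in D1). At members with H3K27me3 alone, an H3K4me3 peak lay within 5 kb of the window at 9 of 22 in A2a and 9 of 23 in D1, or 40.9% and 39.1%, where 11.0% and 8.35% of all genes of that class had one. The closest of these peaks lay 660 bp beyond the window at *Fgf9* in A2a and 315 bp beyond it at *Wnt5a* in D1, where that of *Fgf9* lay at 681 bp.

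A promoter was called high in CpG where a 500-bp stretch had an observed over expected ratio of at least 0.75 and a GC content of at least 55%. This held for 29 members (55.8%), against 50.8% of all genes. Another 4 (7.69%) were low in CpG, with no ratio above 0.48, against 29.1%, and 19 (36.5%) lay between, against 20.1%. Among the 29 with high CpG, 24 had an H3K27me3 island in A2a and 20 in D1 (82.8% and 69.0%), against 17.9% and 13.8% of all 10577 genes with such promoters. H3K4me3 was found at 19 and 17 of the 29 (65.5% and 58.6%), against 94.1% and 92.1%. *Wnt3a*, *Wnt11* and *Ihh* are examples of high-CpG promoters with H3K27me3 and no H3K4me3. Members with H3K27me3 alone had a median ratio of 0.432 over the whole window in A2a, against 0.246 for all genes of that class. Of the members with neither mark, 0 of 6 in A2a and 0 of 8 in D1 were high in CpG. That is near the 2.80% and 3.77% of all genes with neither mark.

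**Figure D4:**
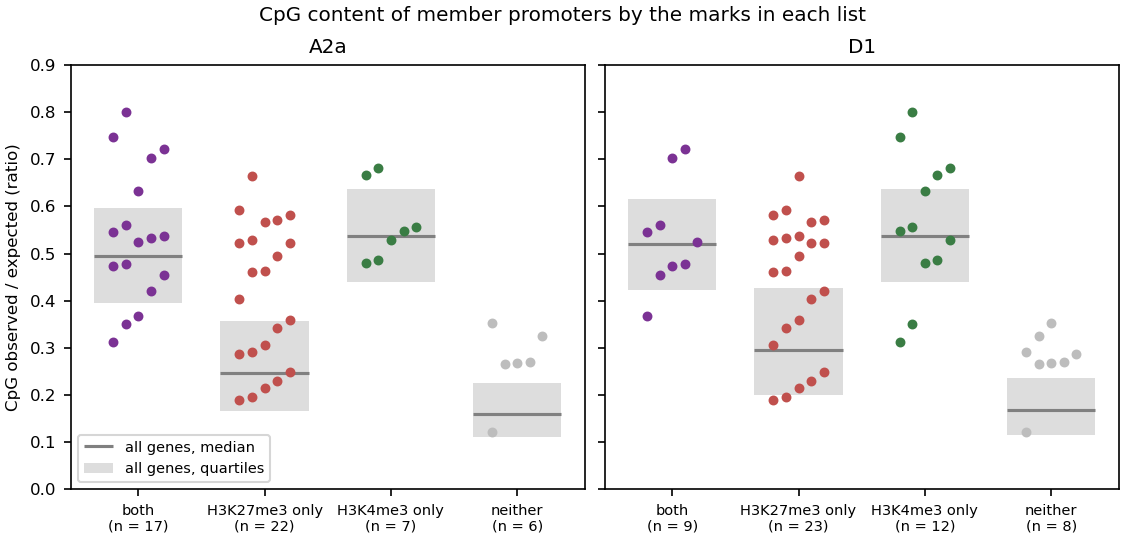
Observed over expected CpG ratio of the promoter window of each member (points), by the marks found in A2a (left) and D1 (right), over the quartiles (grey boxes) and median (line) of all genes of the class. Members with H3K27me3 alone reach 0.664 and have a median of 0.432 in A2a, above the 0.246 of all genes, and members with neither mark stay at or below 0.352.

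The other genes of the 4 pathways were read in the same way, by lists of receptors, inhibitors, transducers and targets. Over all genes, the shares in A2a and D1 were 22.4% and 15.8% with an island and 59.3% and 56.8% with H3K4me3. Both marks lay at 9.84% and 5.79%. Of 33 receptors and co-receptors, 19 had an H3K27me3 promoter island in A2a and 16 in D1, and 29 and 25 had H3K4me3. Receptors thus had H3K4me3 more often than the members, by count, and every receptor promoter had at least 1 mark in each list. The lists also differ in CpG content, since 90.9% of receptors and 55.8% of members had high-CpG promoters. Of all genes with such promoters, 94.1% had H3K4me3 and 1.55% had neither mark in A2a. What CpG content adds to the difference was not tested. *Fzd10*, a Wnt receptor, had islands of 21.4 and 19.8 kb (2657 and 1461 reads), while *Bmpr2*, *Bmpr1a*, *Lrp6* and *Ptch1* had H3K4me3 alone in both. Of the 19 secreted or membrane inhibitors, 16 had an island in A2a and 14 in D1, and 11 and 10 had both marks. *Nog*, a Bmp antagonist, had islands of 22.0 and 21.8 kb, and *Dkk1*, a Wnt antagonist, had H3K27me3 alone with islands of 11.0 and 12.8 kb.

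The intracellular transducers had the fewest islands of the 4 lists, at shares near those of all genes. Of 19, 4 had an island in A2a (21.1%, against 22.4%) and 2 in D1 (10.5%, against 15.8%), and 18 had H3K4me3 in each (94.7%). High-CpG promoters made up 18 of the 19, and 94.1% (A2a) and 92.1% (D1) of all genes with such promoters had H3K4me3. *Tcf7l2*, a nuclear effector of Wnt signals, and *Gli2*, of hedgehog signals, had both marks in both cell types, with A2a islands of 26.0 and 14.8 kb. *Smad1*, *Smad4*, *Smad5*, *Apc* and *Sufu* had H3K4me3 alone in both. Of 17 autosomal target genes, 11 had an island in A2a and 12 in D1, and 16 and 14 had H3K4me3. *Lef1*, a Wnt target, had the longest, 49.4 kb with 7137 reads in A2a and 19.8 kb with 2158 reads in D1, and *Axin2* had H3K4me3 alone in both. An island in A2a and not in D1 was found at *Fzd5*, *Ror1*, *Fgfr2*, *Dkk3*, *Sost*, *Tcf7l1* and *Gli3*, and one in D1 alone at *Spry1*. At *Fgfr2*, *Gli3*, *Sost* and *Tcf7l1* the D1 island lay within 0.947 kb of the window, and at *Spry1* the A2a island lay 0.147 kb from it. Pathway genes were read only at the 5′ end of the annotated gene. The annotated *Fgfr2* is very long (chr7:130162451-133123350), so its calls may not describe the promoter in common use, and its other starts were not read.

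**Figure D5:**
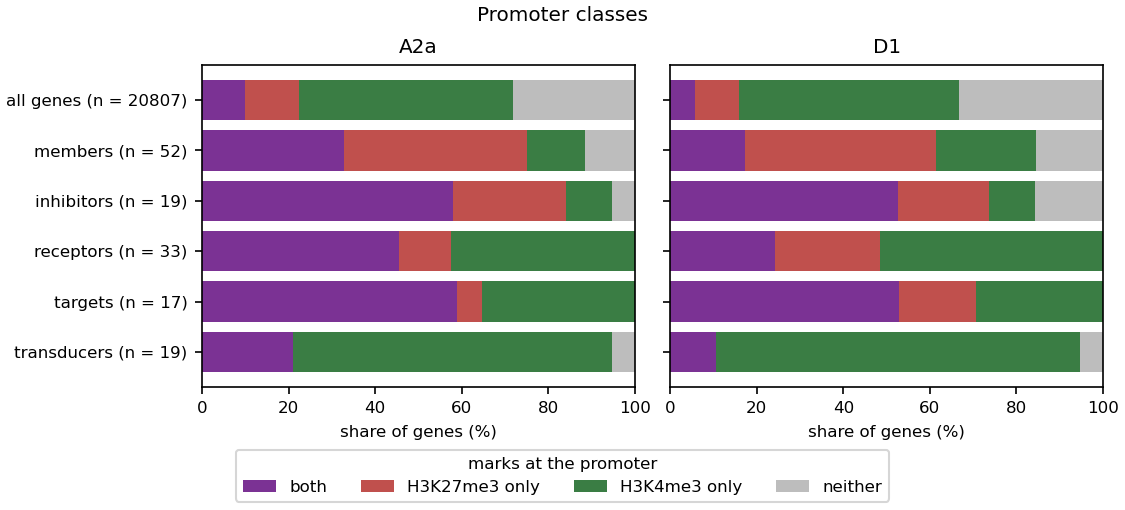
Share of genes (%) with both marks, H3K27me3 alone, H3K4me3 alone or neither at the promoter in A2a (left) and D1 (right), for all genes, the 52 Wnt, Fgf, Bmp and hedgehog genes (members) and the 4 pathway lists, with n beside each name. The members have the largest share of H3K27me3 alone (22 of 52 in A2a and 23 in D1), and transducers the largest share of H3K4me3 alone (14 and 16 of 19).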

How the data were processed

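H3K4me3 and H3K27me3 CnR libraries of A2a and D1 nuclei were used, with 2 pooled replicates in each of 4 deposited lists (8 of 28 samples). The other 20 samples were not analysed here. Reads had been aligned by the authors to mm10 (Bowtie2, version 2.1.0), then filtered to a mapping quality of 20 or more, to unique pairs and to inserts between 150 and 500 bp. They called H3K4me3 peaks with MACS2 at a q-value of 0.01, and each deposited peak has a fold enrichment (a ratio to local background within the library), a −log10 q-value and a display score. For H3K27me3 the authors ran SICER (window 200 bp, gap 600 bp, false discovery rate 0.01) with a control whose library the sources used here do not name. Each deposited island carries its read count, which is not normalized for depth. Library totals are not part of these lists, so the depth of each library is unknown.

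Peaks were ranked within their list by −log10 q and islands by reads. Genes, start sites and promoters followed GENCODE vM21 (55450 genes), and coordinates count from 1. CpG content was computed from the GRCm38.p6 sequence. No test was run, since each list is 1 pooled sample, and members are set beside all 20807 autosomal protein-coding genes. The members and the lists of receptors, inhibitors, transducers, targets and markers were chosen with earlier results of these data known. Genes were named if their class differed between A2a and D1, if they had H3K4me3 alone or neither mark in both, if they were hedgehog genes, shared an island or lay at the window's edge, or if their island was among the 5 with most reads or the 3 longest of a list. Pathway genes whose island call differed were named too. *Wnt11*, *Fgf8*, *Fgf9*, *Fgf15*, the other members given with values, and the pathway and marker genes used as examples are not covered by it, and were picked with their values known. Overlap and CpG procedures were tested on simulated data. Python (version 3.11.15), numpy (version 2.4.6), pandas (version 2.3.3) and matplotlib (version 3.10.9) were used.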

Additional observations from a re-analysis of the deposited data

How the results depend on the processing

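The 9 counts of members were recomputed under 9 alternatives, 8 of them planned, and 78 of the 81 values stayed within 1.5 times the reported count. The alternatives changed the window, start site, overlap, thresholds, numbers of regions, merging of islands within 5 kb and the members (48 without *Fgf11*, *Fgf12*, *Fgf14* and *Bmp1*). The count with an A2a island ranged from 38 to 42 and with a D1 island from 31 to 35. With both marks in D1, it was 17 with the start site of any annotated transcript and 5 where 500 bp of the window had to be covered, against 9. With any annotated start site, 24 of 42 members with an A2a island had both marks, against 17 of 39. H3K4me3 was then gained in both lists at *Bmp4*, *Fgf9*, *Fgf10*, *Wnt8b* and *Wnt11*, in A2a at *Fgf1*, and in D1 at *Wnt5a* and *Wnt7b*. An island was gained in both lists at *Fgf1*, *Fgf4* and *Fgf20*. With a window of 1 kb upstream, 1 member (*Fgf21*) had an island in D1 alone, against 0. A window to 3 kb downstream was added after seeing the data, and gave D1 islands to *Shh* and *Fgf6* and an A2a island to *Wnt8a*. It also gave H3K4me3 to *Wnt1* and *Fgf9* in both lists, to *Wnt11* and *Bmp4* in A2a and to *Wnt5a* in D1. A window from 5 kb upstream gave D1 islands to *Bmp2* and *Wnt10a*. Each setting changes by construction which bases are read.

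No paired analysis was possible because each list pools its 2 replicates, and leaving out a replicate could not be run for the same reason. The D1 H3K27me3 list holds fewer reads than the A2a list, and a promoter without a D1 island is one without an island at that depth.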
